A study of Mus musculus with 12 samples.

Results

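Bile acid synthesis and transport were described through a list of 10 genes: the cytochrome P450 enzyme genes Cyp7a1, Cyp8b1, Cyp27a1 and Cyp7b1, the conjugation genes Slc27a5 and Baat, the transporter genes Abcb11 and Slc10a1, and the nuclear receptor genes Nr1h4 and Nr0b2. All 10 were present among the 17714 genes of the deposited table, and all 10 passed the minimum mean of 10 normalized counts that left 13569 genes for testing. The RNA was total RNA of whole liver from 12 mice, all of them female, 3 weeks old and just weaned, 6 with a global knockout of Lcorl (KO) and 6 wild type (WT), and tissue was taken at about 10 am. Each liver came from its own numbered animal, and no litter, strain or founder line is given in the sources used here. Lcorl, the targeted gene, measured 234 to 308 normalized counts in the WT livers, 0 in 5 KO livers and 2.83 in KO 5. The WT libraries held between 21769795 and 28655120 assigned reads, the KO libraries between 27692285 and 31296485.

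Hepatocytes make bile acids from cholesterol. In the classical route CYP7A1 carries out the rate-limiting hydroxylation at the start, and CYP8B1 directs the product to cholic acid; the alternative route begins with CYP27A1 and continues with CYP7B1. SLC27A5 and BAAT then couple bile acids to taurine or glycine, ABCB11 (the bile salt export pump) secretes them into bile, and SLC10A1 takes them back up from blood. NR1H4, the farnesoid X receptor (FXR), binds bile acids and activates Abcb11 and Nr0b2, and the NR0B2 protein, the small heterodimer partner, acts as a repressor of Cyp7a1 and Cyp8b1.

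Promoter sequence was matched for 6 of the 10 genes, Cyp8b1, Cyp27a1, Abcb11, Slc10a1, Nr0b2 and Nr1h4, in RefSeq on GRCm38.p6. The 250 bases upstream of the annotated start of Abcb11 and of Nr0b2 are shown because both are textbook targets of FXR, of which Abcb11 passed the test between genotypes and Nr0b2 did not. Both lines run 5′ to 3′ on the gene's strand, at chr2:69342617-69342866 (minus strand) for Abcb11 and chr4:133553126-133553375 (plus strand) for Nr0b2, and capitals mark the motif matches described next.
Abcb11: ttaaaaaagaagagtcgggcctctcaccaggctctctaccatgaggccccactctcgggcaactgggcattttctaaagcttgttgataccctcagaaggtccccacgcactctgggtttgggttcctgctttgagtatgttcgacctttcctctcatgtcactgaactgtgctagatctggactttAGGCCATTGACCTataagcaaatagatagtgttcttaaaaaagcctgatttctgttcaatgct
Nr0b2: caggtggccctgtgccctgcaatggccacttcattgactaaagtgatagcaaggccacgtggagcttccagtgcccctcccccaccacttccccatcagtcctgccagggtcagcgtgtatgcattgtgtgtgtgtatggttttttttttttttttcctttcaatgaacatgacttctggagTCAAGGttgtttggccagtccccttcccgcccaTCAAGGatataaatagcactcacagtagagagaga

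Both strands of these windows were searched for AGGTCA, the nuclear receptor half-site, for AGGTCANTGACCT, the inverted repeat that FXR is known to bind, with at most 1 mismatch, and for TCAAGG, a core of the sites of the receptor encoded by Nr5a2. In Abcb11 the inverted repeat matched as AGGCCATTGACCT, starting 63 bases upstream of the annotated start, with the substitution T4C counted from the 5′ end of the motif; its second arm is also the AGGTCA match. Such a match was found in 26 of 32851 upstream windows of this length, or 0.0791%, whereas 14.0% held AGGTCA and 12.5% held TCAAGG. The Nr0b2 window held 2 copies of TCAAGG and no match to the other motifs. Sequence outside these windows was not searched, so the absence of a match holds for the windows only. Neither Cyp8b1 nor Cyp27a1 held any of the 3 motifs. Of the 2 annotated starts of Slc10a1, 1 had a single AGGTCA, as did Nr1h4.

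Of the 10 genes, 1 fell, 0 rose and 9 missed an adjusted p under 0.05 (limma on log2 of the normalized count plus 1, Benjamini-Hochberg over all tested genes). Over all tested genes 4.43% passed, 2.68% lower and 1.75% higher in KO. The same 1 gene was called by edgeR, where 4.1% of all genes were, by DESeq2, and in the authors' deposited table, where 8.68% were. DESeq2 on recovered reads gave the same adjusted p-values for the 10 genes as the deposited table, so these count as 1 analysis. With 10 genes, 1 call is 10% of the set. Their median log2 fold change, KO over WT, was −0.03 beside 0.01 over all tested genes. Fold changes below are on that log2 scale unless said otherwise.

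Abcb11, the canalicular export pump gene, was the member that fell. It lies on chromosome 2 from 69238282 to 69342616 of GRCm38 (minus strand). Normalized counts in WT ranged from 13921 in WT 6 through a median of 17590 to 20228 in WT 4. In KO they ranged from 10452 in KO 4 through a median of 11505 to 13879 in KO 3. All 6 KO livers therefore lay below all 6 WT livers, which held for 1.66% of tested genes (1.3% had all KO above all WT, and 2.96% had either), but the gap between KO 3 and WT 6 was narrow. WT livers averaged 17309 ± 2113 and KO livers 11703 ± 1258 (SD, n = 6 each), a log2 fold change of −0.56 (SE 0.0954, adjusted p = 0.00688, limma), so the KO level was 0.677 of WT with a 95% interval of 0.587 to 0.781. In the authors' deposited table, Abcb11 had a log2 fold change of −0.55 and an adjusted p of 2.64e-06. The call was present in all 24 alternative analyses, with adjusted p from 2.64e-06 with DESeq2 to 0.0355 when livers with nearby animal numbers were blocked together. Of 10 hepatocyte marker genes, Alb and Ttr among them, 0 passed the threshold, beside 4.43% of all tested genes. At that share so few genes would mostly give no call. The summed level of these markers ranged from 3832102 to 4093222 normalized counts in WT and from 3399369 to 4194633 in KO. In whole liver RNA, fewer hepatocytes and less transcript per hepatocyte cannot be told apart.

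Slc10a1, the sinusoidal uptake transporter gene (chromosome 12, 80953183 to 80968705, minus strand), did not pass the test. WT livers were close together, from 22500 through a median of 24179 to 25400 normalized counts. KO livers ran from 18363 in KO 2 through a median of 23246 to 29715 in KO 6, with 3 below and 3 above every WT liver. No KO liver thus lay within the WT range, although the group means were 24012 ± 1281 and 23673 ± 4756 (SD, n = 6 each). The log2 fold change was −0.04, with a 95% interval of −0.30 to 0.21 (adjusted p = 0.870, limma).

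Cyp7a1, the gene of the rate-limiting enzyme (chromosome 4, 6265612 to 6275633, minus strand), varied more between livers than between genotypes. In WT it measured from 3198 in WT 1 through a median of 8814 to 11862 normalized counts in WT 6. In KO it measured from 764 in KO 2 through a median of 9605 to 19815 in KO 6, so the highest liver had 25.9 times the lowest. KO 5 and KO 6 exceeded the highest WT liver, and KO 2 was under the lowest. The log2 fold change was −0.02, and its 95% interval of −1.45 to 1.41 includes changes of more than 2-fold either way (adjusted p = 0.993, limma). KO 2 moved this value most: without it the log2 fold change was 0.62 (SE 0.389, adjusted p = 0.375, limma). The sign also turned without WT 2, WT 3, WT 6 or KO 1 (0.11, 0.095, 0.13 and 0.013), so no direction can be given for Cyp7a1.

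Cyp8b1, the 12α-hydroxylase gene of cholic acid synthesis (chromosome 9, 121914356 to 121916305, minus strand), had its lowest value in the same liver. WT livers ranged from 1568 in WT 6 through a median of 3523 to 4388 normalized counts in WT 1. KO livers ranged from 191 in KO 2 through a median of 2109 to 5831 in KO 5. The other 5 KO livers lay at 1876 or above, and 4 KO livers were within the WT range. The log2 fold change was −0.77 (SE 0.631, 95% interval −2.13 to 0.59, adjusted p = 0.501, limma). It was −0.14 without KO 2 (adjusted p = 0.849, limma).

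KO 2 also held transcripts that the other livers lacked or had less of. Reg1, a pancreatic gene, measured 126 normalized counts in KO 2 and 0 in the other 11 livers. The 3 measured genes of a list of 7 pancreatic acinar markers summed to 340 in KO 2 and to at most 80.6 elsewhere, with 39.0 to 80.6 in WT. Krt19, a ductal keratin gene, measured 301 in KO 2 and 39.5 to 83.9 in the others, and Muc1, an epithelial mucin gene, 208 in KO 2 and 22.4 to 61.1 in the others. The sum of the 10 cholangiocyte markers was 2955 in KO 2, the highest of the 12 livers, 1659 to 2350 in the other 5 KO livers and 2208 to 2912 in WT. The part of these transcripts in the low Cyp7a1 and Cyp8b1 values was not tested. WT 6, the lowest WT liver for Abcb11 and Cyp8b1, had 53.4 normalized counts of Adipoq, an adipocyte gene, which measured at most 0.975 in the others. The sum of the 6 adipocyte markers was 733 in WT 6, inside the range of 500 to 767 over the WT livers, and 401 to 1369 in KO. Only 1 of these 6 genes reached the minimum mean of 10, so the sum rests mainly on that gene and says little of Adipoq. The part of adipocyte transcripts in the values of WT 6 was not tested.

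**Figure D1:**
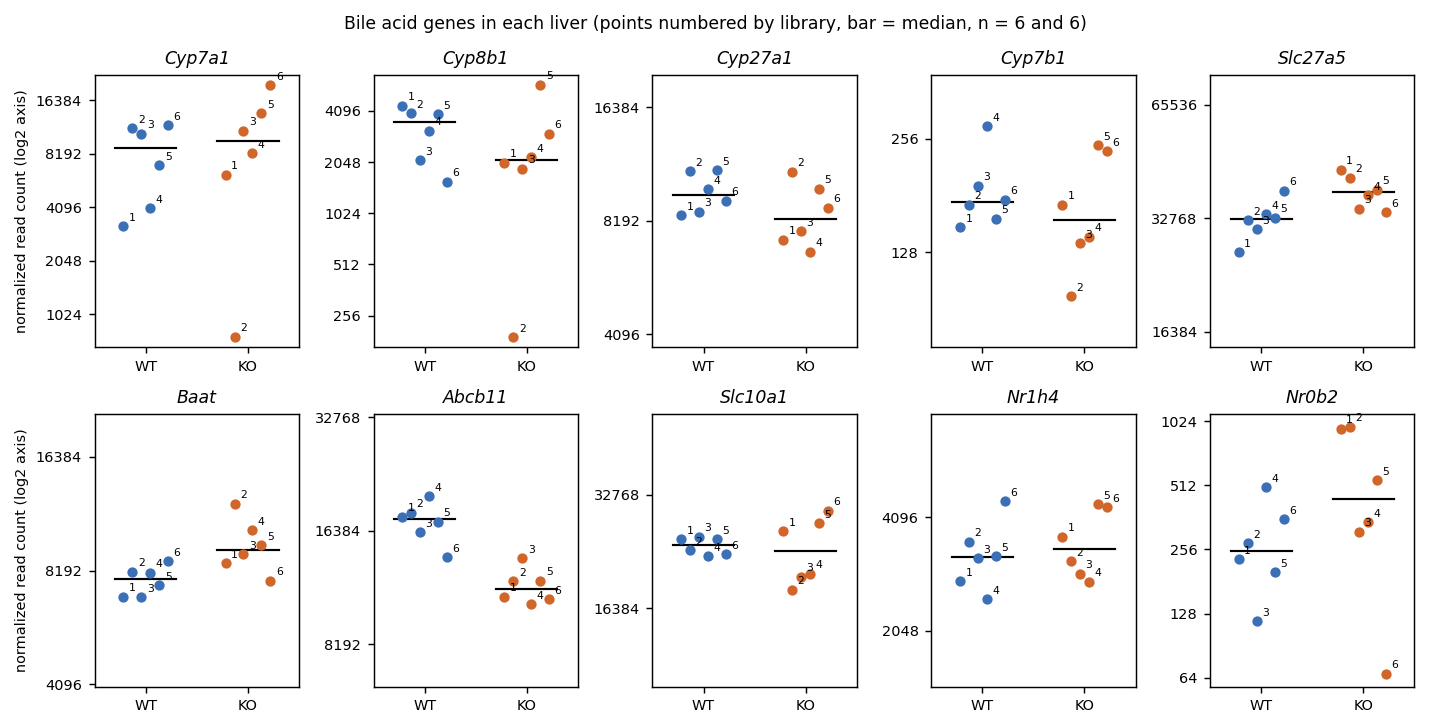
Normalized read count of the 10 bile acid genes in each liver, on a log2 axis that differs between panels; points are livers numbered by library, bars are medians, with 6 WT (blue) and 6 KO (orange). Abcb11 shows no overlap between groups, with KO at 10452 to 13879 and WT at 13921 to 20228, and KO 2 is far below the other livers for Cyp7a1 (764) and Cyp8b1 (191).

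The 2 enzyme genes of the alternative route did not pass. Cyp27a1, the mitochondrial sterol 27-hydroxylase gene (chromosome 1, 74713574 to 74737892, plus strand), ranged from 8469 through a median of 9604 to 11158 normalized counts in WT. In KO it ranged from 6789 in KO 4 through a median of 8289 to 11049 in KO 2, and 3 KO livers lay below every WT liver. Its log2 fold change was −0.19 (95% interval −0.46 to 0.07, adjusted p = 0.369, limma). Cyp7b1, the oxysterol 7α-hydroxylase gene (chromosome 3, 18071950 to 18243338, minus strand), ranged from 149 through a median of 174 to 277 in WT and from 98.0 in KO 2 through a median of 156 to 246 in KO. Its log2 fold change was −0.17 (95% interval −0.64 to 0.31, adjusted p = 0.702, limma). KO 2 thus had the lowest Cyp7a1, Cyp8b1 and Cyp7b1 of all 12 livers but, among the KO livers, the highest Cyp27a1.

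The conjugation genes had higher means in KO, and neither passed the threshold over all genes. Baat, the amino acid N-acyltransferase gene (chromosome 4, 49489422 to 49506557, minus strand), ranged from 6969 through a median of 7788 to 8682 normalized counts in WT. In KO it ranged from 7694 in KO 6 through a median of 9311 to 12327 in KO 2, and 4 KO livers lay above every WT liver. WT livers averaged 7723 ± 695 and KO livers 9612 ± 1627 (SD, n = 6 each), a log2 fold change of 0.30 with a 95% interval of 0.08 to 0.53 (adjusted p = 0.106, limma). Baat passed when KO 6 was left out (log2 fold change 0.36, adjusted p = 0.0467, limma). Its adjusted p was 0.0562 in the authors' deposited table.

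Slc27a5, the bile acyl-CoA synthetase gene (chromosome 7, 12988346 to 12998192, minus strand), had the highest level per kilobase of the 10 genes. It ranged from 26562 through a median of 32559 to 38775 normalized counts in WT, the highest being WT 6. In KO it ranged from 34001 through a median of 38309 to 44077, and 3 KO livers lay above every WT liver. WT livers averaged 32450 ± 3984 and KO livers 38555 ± 3966 (SD, n = 6 each), a log2 fold change of 0.25 with a 95% interval of 0.04 to 0.47 (adjusted p = 0.154, limma). Slc27a5, Baat and Abcb11 were the 3 of 10 genes with an unadjusted p under 0.05 (0.0259, 0.0122 and 5.02e-05, limma), which 23.4% of all tested genes had.

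**Figure D2:**
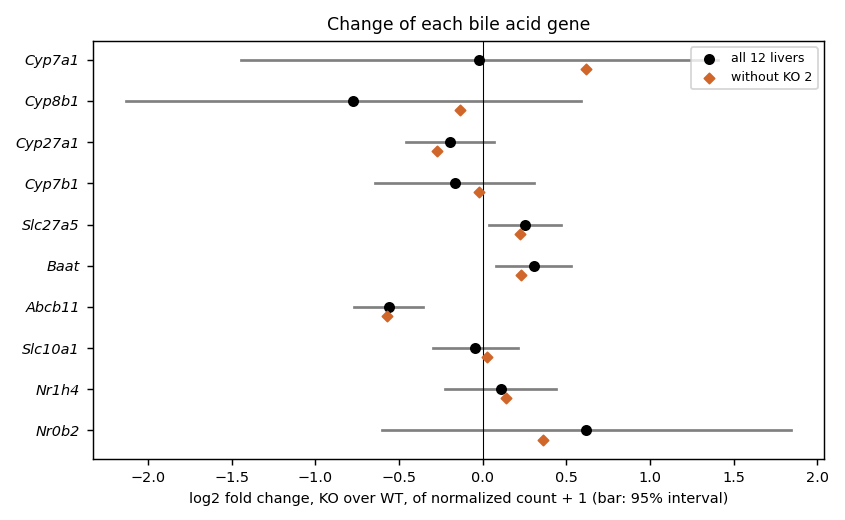
Log2 fold change, KO over WT, of each bile acid gene (black points) with its 95% interval (grey bars, limma, 6 KO and 6 WT livers), and the same value without KO 2 (orange diamonds). Abcb11 stands at −0.56, the intervals of Cyp7a1, Cyp8b1 and Nr0b2 are the widest, and leaving out KO 2 moves Cyp7a1 from −0.02 to 0.62.

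Nr1h4, the FXR gene (chromosome 10, 89454234 to 89533585, minus strand), did not pass the test. It ranged from 2480 through a median of 3207 to 4515 normalized counts in WT and from 2765 through a median of 3383 to 4429 in KO, so all KO livers were within the WT range. Its log2 fold change was 0.11, with a 95% interval of −0.22 to 0.44 (adjusted p = 0.733, limma). Nr0b2, the gene of the repressor downstream of FXR (chromosome 4, 133553376 to 133556536, plus strand), was among the most variable of the 10. It ranged from 118 in WT 3 through a median of 252 to 503 normalized counts in WT 4. In KO it ranged from 66.7 in KO 6 through a median of 442 to 965 in KO 2, with KO 1 at 944 and KO 5 at 540 also above every WT liver. The log2 fold change was 0.62 with a 95% interval of −0.60 to 1.84 (adjusted p = 0.559, limma). It was 0.20 with the animal number block, 0.36 without KO 2 and 1.13 without KO 6, with adjusted p from 0.0985 to 0.766 when any 1 library was left out.

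The order of the livers was then compared between genes over 6 pairs chosen for their textbook links, 5 of which are reported, on log2 of the normalized count plus 1. Nr0b2 and Cyp7a1 stood at opposite ends in 2 livers. KO 2 had the highest Nr0b2 and the lowest Cyp7a1, and KO 6 the lowest Nr0b2 and the highest Cyp7a1. Over the 12 livers Pearson's r was −0.57 (permutation p = 0.0527, adjusted over the 6 pairs 0.110) and Spearman's rho −0.35 (permutation p = 0.265, adjusted 0.640). Without these 2 livers, the farthest from the median of Nr0b2, r was −0.09. The r over the 12 livers thus depends on them, though leaving them out also narrows the range of Nr0b2. Within genotypes r was −0.29 in WT and −0.67 in KO (n = 6 each, exact permutation p = 0.558 and 0.179, adjusted 0.985 and 0.358). The rho within genotypes was 0.09 in WT and −0.83 in KO (exact permutation p = 0.919 and 0.0583, in KO adjusted 0.175).

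Nr0b2 and Cyp8b1 had r = −0.42 and rho = −0.31 over the 12 livers (permutation p = 0.184 and 0.320, adjusted 0.221 and 0.640), and r = −0.02 without KO 2 and KO 6. Within genotypes r was 0.005 in WT and −0.43 in KO (n = 6 each, exact permutation p = 0.985 and 0.303, adjusted 0.985 and 0.454). Cyp7a1 and Cyp8b1, both enzyme genes of the classical route, had r = 0.68 and rho = 0.15 (permutation p = 0.0549 and 0.638, adjusted 0.110 and 0.766). That r rests on KO 2: without WT 1 and KO 2, the livers farthest from the median of Cyp7a1, it was 0.09, and within genotypes it was −0.58 in WT and 0.94 in KO (n = 6 each, exact permutation p = 0.200 and 0.0306, adjusted over the 6 pairs 0.600 and 0.0917). Nr1h4 showed r = −0.14 and rho = 0.00 with Nr0b2 (permutation p = 0.659 and 1, adjusted 0.659 and 1) and r = −0.44 and rho = −0.24 with Abcb11 (permutation p = 0.154 and 0.455, adjusted 0.221 and 0.682). Without WT 6 and KO 5, the livers farthest from the median of Nr1h4, these r were −0.38 and −0.45. Within genotypes they were −0.07 and −0.87 in WT and −0.30 and −0.20 in KO (n = 6 each, exact permutation p = 0.906, 0.0333, 0.642 and 0.728, adjusted 0.985, 0.200, 0.728 and 0.728). None of the 5 pairs passed after adjustment, over the 12 livers or within a genotype, and sets of livers with nearby animal numbers held 2 to 4 each, too few for values of their own.

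**Figure D3:**
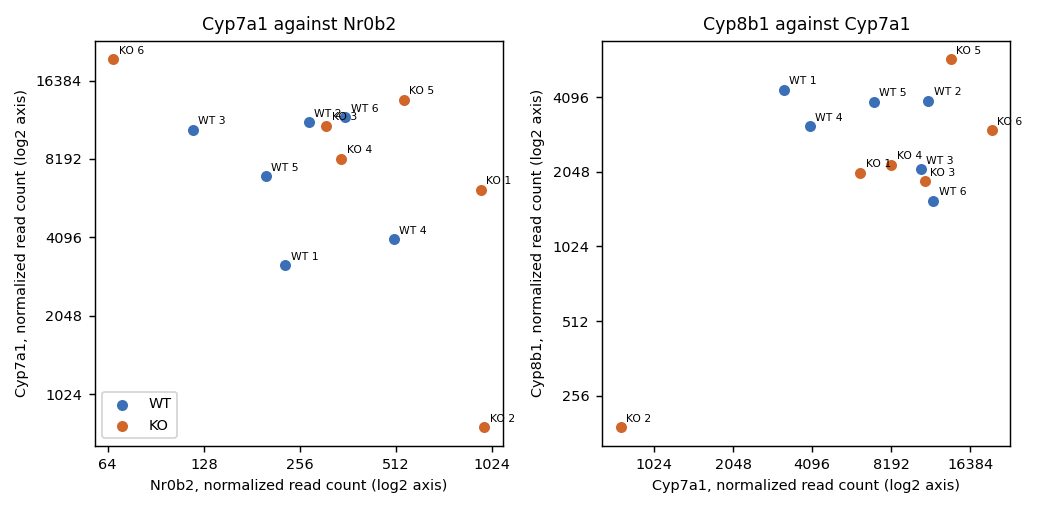
Normalized read counts of Cyp7a1 against Nr0b2 and of Cyp8b1 against Cyp7a1, each point a liver named beside it, on log2 axes (WT blue, KO orange). KO 2 is at the lower edge of both panels, with 764 of Cyp7a1 and 191 of Cyp8b1, and KO 6 has the lowest Nr0b2 (66.7) with the highest Cyp7a1 (19815).

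Levels were compared between genes per kilobase of merged exons in GENCODE M21. In WT livers the medians were 13355 normalized counts per kilobase for Slc27a5 and 10996 for Slc10a1, whose ranges overlapped, and both were above the other 8 genes. Cyp27a1 (4420), Baat (4012), Abcb11 (3418), Cyp7a1 (2112), Cyp8b1 (1807) and Nr1h4 (1393) followed, each overlapping its neighbour in range. Nr0b2 at 222 and Cyp7b1 at 80.2 were lowest and overlapped each other. In KO livers 3 pairs of neighbours changed places: Baat (4797) came before Cyp27a1 (3815), Cyp7a1 (2301) before Abcb11 (2236), and Nr1h4 (1469) before Cyp8b1 (1082). These changes of place were not tested.

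Other genes of bile acid biology were read from 4 lists of 82 genes in all, 76 of which could be tested. Of these, 2 fell and 0 rose, or 2.63%, again beside 4.43% of all tested genes. The fallen genes were Abcd3 and Slc10a2, and their link to bile acids follows from how the lists were chosen. Abcd3 encodes a peroxisomal membrane transporter that imports the C27 bile acid intermediates. It ranged from 12609 to 15567 normalized counts in WT and from 8772 to 12179 in KO, with no overlap, and fell by 0.41 on the log2 scale (SE 0.0878, adjusted p = 0.0242, limma). The call of Abcd3 was lost without WT 2, WT 4, KO 1 or KO 4 (adjusted p = 0.0551, 0.0533, 0.0502 and 0.0563, limma) and with the animal number block (0.111). Slc10a2 encodes the apical sodium-dependent bile acid transporter, which in liver is known from cholangiocytes. It ranged from 12.4 to 20.4 normalized counts in WT and from 2.74 to 9.90 in KO, with no overlap, and fell by 1.57 on the log2 scale (SE 0.288, adjusted p = 0.0106, limma). Its mean over the 12 livers, 10.01, was barely above the filter, which it passed only through the WT livers, so its count among the calls is no support for a change of the list; without it, 1 of 75 list genes was called (1.33%). With no filter its adjusted p was 0.00833 (limma). It was below the filter, and so not tested, in 10 of the 24 alternatives, among them each of the 6 that left out a single WT liver. Of the 7 other testable cholangiocyte markers, 0 passed, beside 4.43% of all tested genes, a share at which so few genes would mostly give no call. All 10 markers of that list, Slc10a2 and those below the filter included, were also summed. KO 4, KO 3 and KO 5 summed to 1659, 1713 and 2031 normalized counts, below every WT liver. The sum was 2271 and 2350 in KO 1 and KO 6, within the WT range, and 2955 in KO 2, above it. The part of cholangiocyte content in the Slc10a2 values was not tested.

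Among 17 tested genes of the other synthesis enzymes 16 missed the threshold and 1 fell, and the median log2 fold change was 0.05. An unadjusted p under 0.05 was found for 6 of them (limma), beside 23.4% of all genes. Calls by edgeR and by DESeq2 numbered 1 each, beside 4.1% and 8.68% of all genes. Besides Abcd3, the smallest p-values were those of Slc27a2, a very long chain acyl-CoA synthetase gene (0.38, adjusted p = 0.109, limma), Amacr, a racemase gene of side-chain shortening (0.29, adjusted p = 0.117), and Acot8, a peroxisomal thioesterase gene (−0.22, adjusted p = 0.126). Without WT 6, Slc27a2 and Amacr passed (adjusted p = 0.0168 and 0.0401, limma). Ch25h was below the filter, as was Slc51a among the transport genes. Among 18 tested genes of other transport 17 missed the threshold and 1 fell, with a median of −0.01. Of these, 7 had an unadjusted p under 0.05 (limma), edgeR called 1 and DESeq2 4. Over all genes 23.4% had an unadjusted p under 0.05 (limma), edgeR called 4.1% and DESeq2 8.68%. For Abcc3, the basolateral efflux pump gene, the mean normalized count was 1906 ± 470 over the WT livers and 2942 ± 601 over the KO livers (SD, n = 6 each). Its log2 fold change was 0.64 with SE 0.175 (limma adjusted p = 0.0574), and 5 KO livers exceeded every WT liver. Abcc3 passed with DESeq2 (adjusted p = 0.0124) and without WT 6, KO 3 or KO 6 (limma adjusted p = 0.0369, 0.0346 and 0.0465). The uptake transporter genes Slco1a4 and Slco1b2 had log2 fold changes of 0.47 and 0.27 (adjusted p = 0.109 and 0.149, limma). Slco1a4 passed with DESeq2 (adjusted p = 0.0400) and with the animal number block (limma adjusted p = 0.0185). Slco1a1, another uptake transporter gene, ran the other way and was added after its values were seen. It ranged from 1.27 through a median of 25.8 to 134 normalized counts in WT and from 0 through a median of 3.44 to 16.4 in KO, with overlap. Its log2 fold change was −2.30 (SE 0.936, adjusted p = 0.162, limma), and its adjusted p with DESeq2 was 0.0346.

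Among 20 tested sensing and control genes, 0 passed in limma, 4 had an unadjusted p under 0.05, edgeR called 0 and DESeq2 1, Onecut1. The list median was 0.05. The shares over all genes were 4.43% in limma, 23.4% for an unadjusted p under 0.05, 4.1% with edgeR and 8.68% with DESeq2. Onecut1, a hepatocyte and biliary transcription factor gene, averaged 54.0 ± 42.4 normalized counts over the WT livers and 17.3 ± 11.6 over the KO livers (SD, n = 6 each), with a log2 fold change of −1.39 (limma adjusted p = 0.160). Nr1i3, the constitutive androstane receptor gene, had a log2 fold change of 0.68, Prox1, a hepatocyte homeobox gene, 0.62, and Nr5a2, the gene of an activator of bile acid enzymes, 0.19 (adjusted p = 0.168, 0.157 and 0.203, limma). Prox1 passed without WT 6 (adjusted p = 0.0468, limma). Fgfr4 and Klb, the receptor genes for the intestinal signal that lowers Cyp7a1, had log2 fold changes of 0.03 and 0.12 (adjusted p = 0.876 and 0.406, limma) and were added after their values were seen. Vdr and Gpbar1 were below the filter, and Fgf15 and Sult2a8 had no entry under these names in the deposited counts.

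The 21 genes of cholesterol synthesis and supply, the source of bile acid precursors, had a median log2 fold change of −1.10, with 19 lower and 2 higher in KO. None passed in limma, 10 had an unadjusted p under 0.05, edgeR called 0 and DESeq2 2, Sc5d and Scarb1. The shares over all genes were 4.43% in limma, 23.4% for an unadjusted p under 0.05, 4.1% with edgeR and 8.68% with DESeq2. Sc5d, a sterol desaturase gene, had a log2 fold change of −1.10, Nsdhl −2.11, and Fdps, the farnesyl diphosphate synthase gene, −2.15 (adjusted p = 0.0737, 0.0932 and 0.0963, limma). Scarb1, the gene of the receptor that takes up cholesterol from high-density lipoprotein, had 0.34 (adjusted p = 0.0848, limma), with 5 KO livers above every WT liver. Without KO 6, all 4 of these genes passed, with adjusted p of 0.0250 for Sc5d, 0.0319 for Nsdhl, 0.0375 for Fdps and 0.0278 for Scarb1 (limma). The mean of the list relative to the WT mean was −2.36, −2.53 and −2.19 on the log2 scale in KO 1, KO 2 and KO 4, and −0.11 to 0.29 in the other 3 KO livers, against −0.25 to 0.29 in WT.

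**Figure D4:**
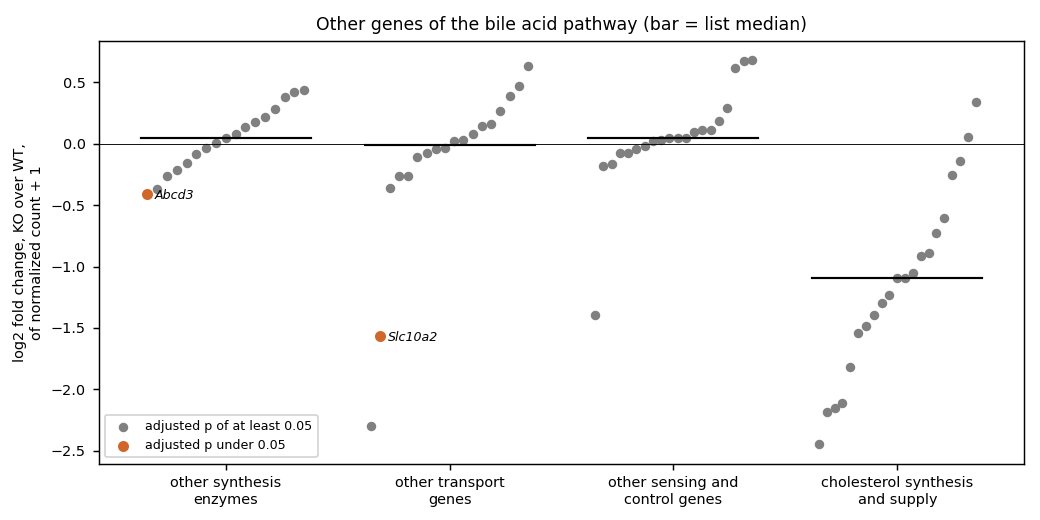
Log2 fold change, KO over WT, of 76 other genes of bile acid biology in 4 lists, each point a gene, bars the list medians, orange the 2 genes with an adjusted p under 0.05 (limma, 6 KO and 6 WT livers). Abcd3 (−0.41) and Slc10a2 (−1.57) are the called genes, Slc10a2 having passed the filter only through the WT livers, and the cholesterol list has a median of −1.10 with none called.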

How the data were processed

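The authors deposited normalized read counts per gene, a signal made by dividing reads by 1 factor per library; FastQC, STAR, featureCounts, DESeq2 and mm10 are named in the submitters' processing notes, without versions; the annotation and strand setting were not given there. Whole reads were recovered, since 100% of values were whole multiples of a single step per library, within 0.001 reads. The deposited comparison gives a log2 fold change (small values appear shrunken), its error and p-values, per the file headers.

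Genotype was tested with limma 3.58.1 (R 4.3.3) on log2 values after adding 1 to the normalized count, with trended prior variances. Genes with a mean of at least 10 entered, and tests were two-sided with Benjamini-Hochberg adjustment at 0.05. edgeR 4.0.16 and DESeq2 1.42.0 on recovered reads were alternatives. Correlations used 100000 permutations for 12 livers and all orders within genotypes. The 10 genes and all lists were chosen with earlier results of these data known. Named beyond the 10 genes were list genes past the threshold and up to 4 of lowest p in each list; further genes are marked as chosen after their values were seen. For 1 further pair of genes the correlation is not reported here, and p-values were adjusted with it included. Libraries are numbered within genotype in accession order, and p-values measure the spread between these animals.

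In a check on counts simulated for 13569 genes with the dispersion of the WT livers, KO against WT, the test recovered 56.7% of genes changed 1.5-fold, 92.5% of those changed 2-fold and 98.5% of those changed 4-fold. Among the 10 genes, the coefficient of variation (SD over mean) was higher in KO than in WT except for Abcb11, Nr1h4 and Slc27a5. It was 74.0% in KO against 35.6% in WT for Cyp8b1, and 20.1% against 5.34% for Slc10a1. The recovered shares therefore do not hold for genes that vary more in KO.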

Additional observations from a re-analysis of the deposited data

Results flagged for a closer look

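Cyp7a1 in KO 2 measured 764 normalized counts, far below the other 5 KO livers, which lay between 6241 and 19815. Cyp8b1 in KO 2 measured 191, where the other 5 KO livers lay between 1876 and 5831. In both cases the gap to the next liver on the log2 scale exceeded 0.625 of the group's whole range, at 0.645 and 0.668. The check was made on 52 groups of 6 livers, the 10 bile acid genes and 16 further genes in each genotype. Chance alone exceeds this limit in about 1 of 20 groups. Both cases came from the same liver, KO 2, and the groups share livers. That rate therefore does not say how likely these cases were together.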

How the results depend on the processing

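Of the 10 bile acid genes 1, Abcb11, was called in each of the 24 alternatives; without KO 6 the count was 2, with Baat added, so the range over single libraries left out was 1 to 2. Over the 4 lists the count was 2, and it was 1 with a minimum mean of 50, equal totals or equal upper quartiles, where Slc10a2 was below the filter, as it was without any 1 WT liver, 8 with DESeq2, 0 to 8 with single libraries left out (0 without WT 2 or WT 4, 5 without WT 6 and 8 without KO 6), and 5 without KO 2 and WT 6 together, an alternative chosen after seeing the data. Over all genes the count of 601 became 1323 with DESeq2, 158 with the animal number block (4 sets of livers with nearby numbers), 224 (without KO 4) to 933 (without WT 6) with single libraries left out, and 917 without KO 2 and WT 6. The change of Cyp7a1 turned to 0.34 with library quality weights, 0.32 with edgeR, 0.32 with DESeq2, 0.61 with the animal number block and 0.77 without KO 2 and WT 6, and ran from −0.32 to 0.62 with single libraries left out; none of these passed. That of Slc10a1 turned to 0.063 with the animal number block and 0.010 without KO 2 and WT 6, and ran from −0.11 to 0.025 (without KO 2). The r of Nr0b2 with Cyp8b1 was 0.0047 within WT and 0.0037 without KO 2 and WT 6. The r of Nr1h4 with Nr0b2 ran from −0.27 to 0.16 with single libraries left out. For Cyp7a1 with Cyp8b1 it was −0.58 within WT, −0.059 without KO 2 and WT 6, and −0.14 to 0.80 with single libraries left out. The cause of these shifts was not tested. No paired analysis was possible because the labels give animal numbers and no replicate numbers shared between genotypes. Equal upper quartiles moved the share of calls that were higher in KO from 39.4% to 45.1% and equal totals to 35.9%. Depth did not limit the members, the lowest value being 66.7 normalized counts, but Slc10a2 rests on few reads.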

Other observations

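The ratio of Abcb11 to Slc10a1 within a liver, export over uptake transcript, was 0.611 to 0.899 in WT and 0.364 to 0.698 in KO, and 4 KO livers lay below every WT liver. The ratio of Cyp8b1 to Cyp7a1 was 0.132 to 1.37 in WT and 0.152 to 0.421 in KO, and all 6 KO livers, KO 2 at 0.250 included, were within the WT range. The ratio of Cyp7a1 to Cyp7b1, classical over alternative route, was 14.5 to 67.3 in WT and 7.80 to 83.5 in KO, with KO 2 below and KO 3 and KO 6 above every WT liver. These ratios were not tested.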
